A study of Homo sapiens with 8 samples.

Results

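The RNA polymerases and general transcription factors are the proteins that copy genes into RNA, and 107 of their genes were followed in A549 cells, a human lung carcinoma line of epithelial origin. The genes were chosen by name. They are protein-coding genes whose symbols start with POLR1, POLR2, POLR3, GTF2 or GTF3, or with MED or TAF followed by a number. No measured value enters this rule, but it was set with earlier results of these data known. The gene annotation holds 126 such genes, 107 had a matched probe among 19056 genes on the arrays, and the 19 without one were GTF2A1L, GTF2H2, GTF2H2C, GTF2IRD2B, POLR2J3, POLR2M and 13 genes of the TAF11L family. The cells were given EEDS, an ethanol extract of the seeds of Descurainia sophia, at 1.25, 5 or 20 μg/mL, or helveticoside, a cardiac glycoside that occurs in this extract, at 3.75, 15 or 60 nM. Each agent had its own vehicle control, which for EEDS was DMSO, and all 8 arrays were one-colour whole human genome arrays. The RNA of 3 cultures was pooled for an array, and with 1 array for each dose a single dose has no replicate error and no p-value. The exposure is given as 24 h in the methods and as 48 h in the sample labels.

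RNA polymerase I makes the large ribosomal RNA, RNA polymerase II makes messenger RNA, and RNA polymerase III makes transfer RNA, 5S ribosomal RNA and other short RNAs. Each enzyme shares a core of small subunits with the others and carries subunits of its own, and each is brought to its promoters by its own factors: SL1 for polymerase I, TFIIIA and TFIIIC for polymerase III, and TFIIA, TFIIB, TFIID, TFIIE, TFIIF and TFIIH for polymerase II. Mediator is a large complex of head, middle, tail and kinase modules that passes signals from DNA-bound activators to polymerase II.

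The signal on each array was put on a log2 scale after quantile normalization over the 8 arrays, and a log2 ratio is the log2 signal of a dose minus that of the vehicle control of its own series. Such values are relative to all other genes on the array, and in a culture fewer expressing cells and less RNA per cell cannot be told apart. The median signal of an array was 182 to 278 against a local background of 27 to 34, and 54.5% to 64.9% of probes were well above background. Of the 107 genes, 99 were well above background on all 8 arrays, GTF2H4, GTF2IRD2, MED28, MED31, TAF4B and TAF5 on some of them, and MED12L and TAF7L on none. All 11 markers of A549 cells were well above background on all 8 arrays. Among markers of blood, endothelium and fibroblasts, PECAM1, VWF, COL1A2, DCN and CD3E were so on none, and PTPRC, CD79A and COL1A1 on all 8. The log2 ratios of these last 3 at 20 μg/mL EEDS were 0.20, −1.17 and 0.80, and their part in the results was not tested.

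The promoters of 4 genes that moved far and have a single start in the RefSeq table are shown first, because genes of opposite direction can be read against each other in them. Each runs 5′ to 3′ on the strand of the gene, from 250 bases before to 50 bases after the start on GRCh38.p14. POLR3GL lies on the plus strand at chr1:145964440-145964739, TAF1A on the minus strand at chr1:222589884-222590183, TAF13 on the minus strand at chr1:109075954-109076253 and MED10 on the minus strand at chr5:6378498-6378797. Capitals mark matches, on either strand, to the CCAAT box (CCAAT), the GC box (GGGCGG) and the ETS core (CCGGAAG).
POLR3GL: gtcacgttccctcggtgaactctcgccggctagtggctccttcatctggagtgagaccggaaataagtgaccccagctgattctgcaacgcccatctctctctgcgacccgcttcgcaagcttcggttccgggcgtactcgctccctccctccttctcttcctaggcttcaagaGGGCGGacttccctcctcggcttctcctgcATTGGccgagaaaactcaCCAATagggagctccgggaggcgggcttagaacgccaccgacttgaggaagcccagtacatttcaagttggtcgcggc
TAF1A: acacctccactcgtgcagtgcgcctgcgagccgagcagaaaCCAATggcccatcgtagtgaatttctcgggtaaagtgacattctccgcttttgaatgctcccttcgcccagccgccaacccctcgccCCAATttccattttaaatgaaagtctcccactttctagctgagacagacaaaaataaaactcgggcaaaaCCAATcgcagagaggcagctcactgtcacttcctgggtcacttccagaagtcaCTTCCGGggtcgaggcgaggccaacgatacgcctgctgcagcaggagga
TAF13: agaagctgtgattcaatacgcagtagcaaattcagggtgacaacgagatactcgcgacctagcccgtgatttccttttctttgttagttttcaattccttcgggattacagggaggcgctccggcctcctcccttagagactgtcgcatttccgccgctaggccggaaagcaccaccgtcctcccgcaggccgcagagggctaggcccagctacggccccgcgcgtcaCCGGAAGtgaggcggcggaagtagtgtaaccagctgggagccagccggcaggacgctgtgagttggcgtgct
MED10: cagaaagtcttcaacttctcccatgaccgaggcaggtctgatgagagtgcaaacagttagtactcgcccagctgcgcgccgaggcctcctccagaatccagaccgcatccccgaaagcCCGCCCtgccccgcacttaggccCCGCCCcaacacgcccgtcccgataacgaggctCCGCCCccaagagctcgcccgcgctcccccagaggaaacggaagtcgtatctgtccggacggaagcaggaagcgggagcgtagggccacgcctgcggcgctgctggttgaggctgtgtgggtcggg
The POLR3GL promoter held 2 CCAAT boxes and 1 GC box, the TAF1A promoter 3 CCAAT boxes and 1 ETS core, the TAF13 promoter 1 ETS core and the MED10 promoter 3 GC boxes. POLR3GL, whose signal went down, and TAF1A, whose signal went up, thus both held CCAAT boxes in this window.

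The table held 102 start windows for 83 of the 107 genes, and 21055 windows for genes on the array as a whole. The ETS core was found in 39.2% of the members' windows and in 13.0% of those of the array's genes. A site of NRF1, a factor known for its part in the control of mitochondrial and housekeeping genes, was found in 24.5% and 7.6%, and the GC box in 61.8% and 56.9%. The CCAAT box was found in 32.4% and 34.7%. The TATA box (TATAAA), the AP-1 site (TGACTCA) and the cAMP response element (TGACGTCA) were found in 4.9%, 1.96% and 4.9% of the members' windows, and in 9.26%, 4.03% and 2.32% of the others. No motif of this search contains another, and a match describes the letters of a window and not a bound factor.

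At the top doses the median ratio of the members was small, but the genes spread to both sides of it somewhat less widely than all genes. Single genes such as TAF1A moved by up to 6.70-fold in the values named here. The median log2 ratio of the 107 genes was −0.03, 0.08 and 0.29 at 1.25, 5 and 20 μg/mL EEDS, and that of all genes was 0.01, 0.01 and 0.02. With helveticoside it was −0.03, −0.05 and 0.14 at 3.75, 15 and 60 nM, and that of all genes was 0.01, −0.04 and −0.00. The SD across the 107 genes was 0.96 at 20 μg/mL EEDS and 0.82 at 60 nM helveticoside, against 1.09 and 1.02 across all genes. The signal was above the vehicle control in 63 genes at 20 μg/mL EEDS (58.9%) and in 61 at 60 nM helveticoside (57.0%). Of all genes 54.5% and 48.9% were so, and 49.5% and 51.3% of genes well above background on all 8 arrays. Within 0.5 log2 units of the control at both top doses lay 35 members. The share of all genes was not taken for that count, so it is not read as particular to the members.

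**Figure D1:**
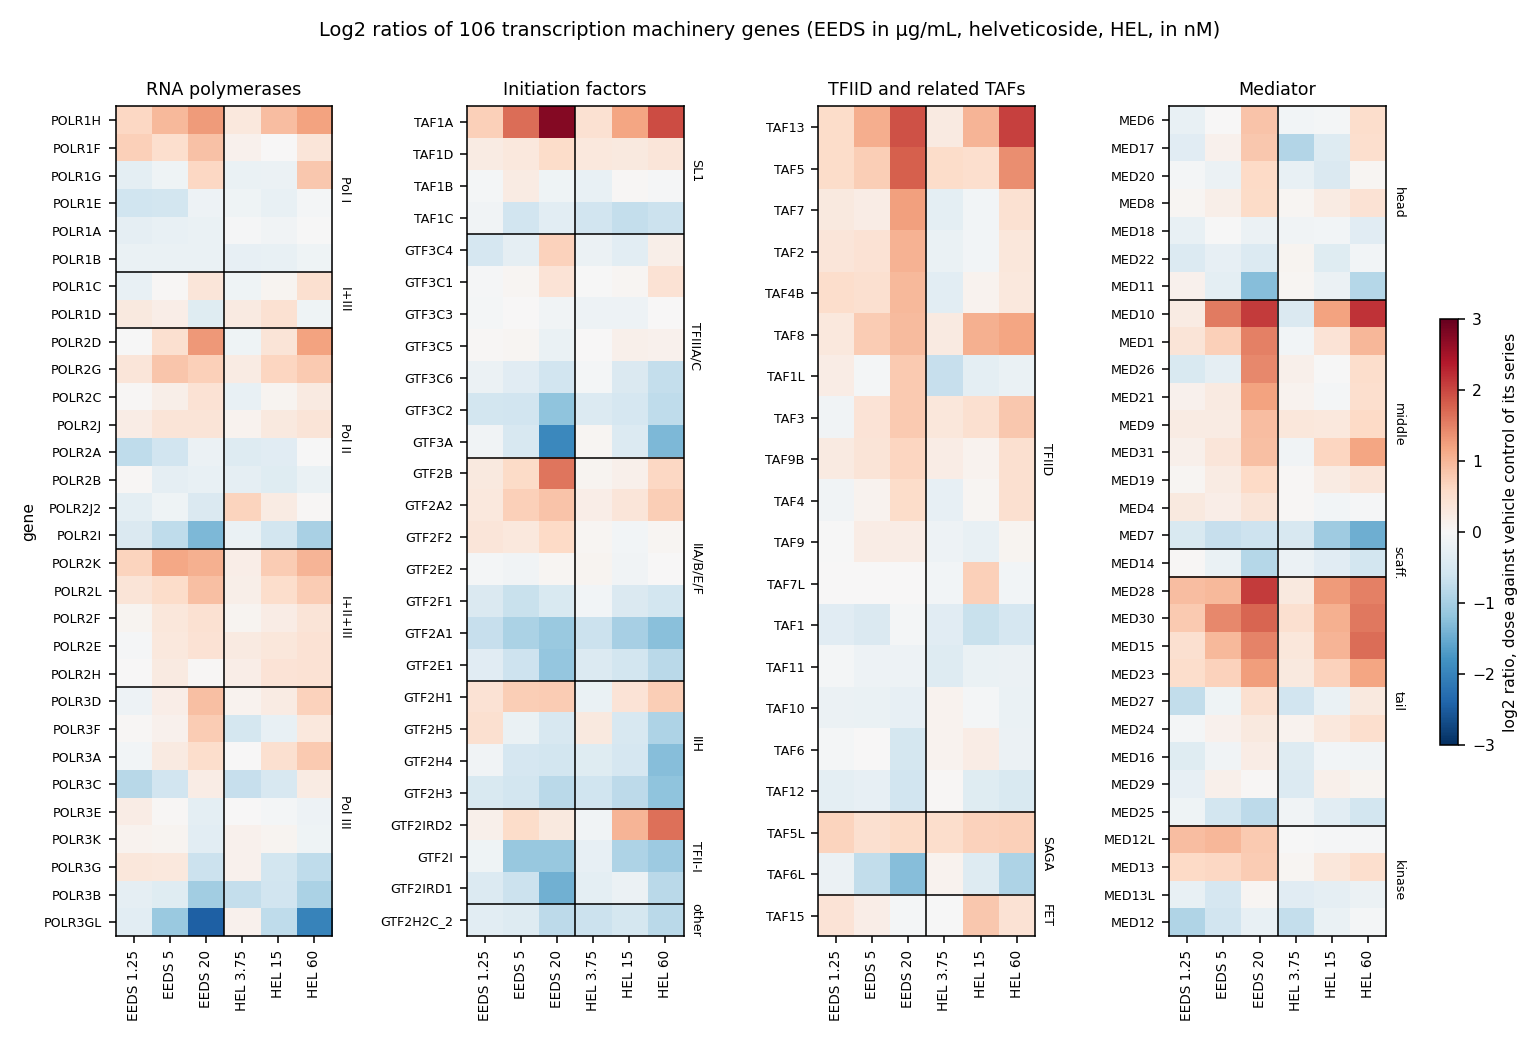
Log2 ratio of each of 106 of the genes at the 3 doses of EEDS (μg/mL) and of helveticoside (HEL, nM) against the vehicle control of the series, with red for higher and blue for lower signal; rows are grouped by complex and ordered by the ratio at 20 μg/mL EEDS. The deepest colours are those of TAF1A (2.74 at 20 μg/mL EEDS) and POLR3GL (−2.45), and most rows of a complex are pale.

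More than 2-fold higher signal was seen in 17 of the 107 genes at 20 μg/mL EEDS (15.9%) and more than 2-fold lower signal in 12 (11.2%), where the shares of all genes were 13.3% and 14.5%. At 60 nM helveticoside 14 genes were higher (13.1%) and 8 lower (7.48%), against 10.8% and 12.8% of all genes. Among genes well above background on all 8 arrays, 15 and 12 of 99 members were past 2-fold with EEDS, against 14.3% and 16.2%, and 10 and 7 with helveticoside, against 10.9% and 13.3%. The members' shares thus lay near or under those of all genes at the top doses. Some calls rest on the treatment of the background: with the signal as scanned the log2 ratios of GTF2A1 and POLR3B at 20 μg/mL EEDS were −0.92 and −0.83, that of GTF2H3 at 60 nM helveticoside was −0.89, and those of MED23 were 0.97 and 0.80, each under 2-fold.

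The lower doses gave few calls. At 1.25 μg/mL EEDS no member was more than 2-fold higher and 1 was lower (all genes 4.22% and 3.66%). At 5 μg/mL EEDS TAF1A, MED10, MED30, POLR2K and TAF13 were higher and 3 were lower, POLR3GL and GTF2I among them, where the background was 7.33% and 8.47%. No member passed 2-fold in either direction at 3.75 nM helveticoside (all genes 3.38% and 4.3%). At 15 nM helveticoside TAF1A, MED10, MED28, MED30, MED15, TAF8, TAF13 and GTF2IRD2 were higher and 3 were lower, MED7 and GTF2A1 among them, against 7.08% and 8.06% of all genes. The probe of MED28 was not well above background on any helveticoside array, and without it 7 genes were higher at 15 nM and 13 at 60 nM. MED31, also counted at 60 nM (log2 ratio 1.17), was not well above background on the helveticoside control array. As a bound it was at least 1.44-fold higher, which is under 2-fold.

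A straight line on the dose step was fitted to the log2 signal of every gene with limma, with a slope for each agent, and called at an adjusted p under 0.05 over all genes. With EEDS 18 members rose with dose (16.8%) and 11 fell (10.3%), where 7.27% and 7.85% of all genes did. With helveticoside 10 rose (9.35%) and 8 fell (7.48%), against 5.48% and 5.8%. Among genes well above background on all 8 arrays, 10.2% rose and 10.7% fell with EEDS, and 7.58% and 7.63% with helveticoside. The members' falling shares thus lay near or under those of such genes. In a fit of only these genes, 33 of 99 members and 3600 of 11498 genes were called with EEDS, and 25 and 2774 with helveticoside. The trends did not pass in fits with fewer doses: no gene was past the threshold when the lowest, the middle or the top dose of both series was left out. When each array was scaled to its 75th percentile, 24 members rose and 11 fell with EEDS, and 17 rose and 6 fell with helveticoside. The calls over all 19046 genes grew as well, from 2879 to 3994 with EEDS and from 2147 to 2483 with helveticoside. This scaling set the median of all genes at −0.36 at 20 μg/mL EEDS and at −0.18 at 60 nM helveticoside.

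RNA polymerase III and its factors held some of the genes furthest below their controls. Of 10 member subunits particular to the enzyme and 7 genes of TFIIIA and TFIIIC, none was more than 2-fold higher at either top dose. Of these 17, 5 were more than 2-fold lower with EEDS and 3 with helveticoside, and 4 and 2 fell with dose. The lower genes make 29.4% and 17.6% of the 17, against 14.5% and 12.8% of all genes, and the falling ones 23.5% and 11.8%, against 7.85% and 5.8%, and no test of the group was made. Among genes well above background on all 8 arrays, 16.2% and 13.3% were lower, and 10.7% and 7.63% fell. The name rule leaves out CRCP, a further polymerase III subunit, and the factor BRF2. Both were more than 2-fold higher at the top doses, with log2 ratios of 1.96 and 1.61, and 1.69 and 1.70. The median log2 ratio of these 17 genes was −0.30 at 20 μg/mL EEDS and −0.12 at 60 nM helveticoside. It joins rises and falls: 6 and 8 of the 17 were above the control (35.3% and 47.1%). The shares of all genes were 54.5% and 48.9%. At 20 μg/mL EEDS, for example, POLR3D had a log2 ratio of 0.91 and POLR3GL −2.45.

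POLR3GL and POLR3G are paralogues of which one copy sits in each polymerase III, and POLR3G is known as the form of stem and tumour cells. The log2 signal of POLR3GL was 12.25 without EEDS and 11.94, 11.14 and 9.80 at rising doses, and 12.25 without helveticoside and 12.38, 11.48 and 10.24 at rising doses. The middle and top doses of both agents thus lay below the controls, and 3.75 nM helveticoside did not. The gene was 5.47-fold lower at 20 μg/mL EEDS and 4.02-fold lower at 60 nM helveticoside, and it fell with EEDS dose (slope −0.82 ± 0.17, limma adjusted p = 0.0350), while the slope with helveticoside was −0.69 ± 0.17 (adjusted p = 0.0590). Its second probe gave log2 ratios of −2.35 and −2.01. POLR3G had log2 ratios of −0.65 and −0.76 at the top doses, with −0.59 and −1.26 on a second probe, and no trend passed the test.

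TFIIIA, the factor that reads the 5S ribosomal RNA gene, is encoded by GTF3A. Its log2 signal was 14.39 without EEDS and 14.27, 13.91 and 12.46 at rising doses, and 14.28, 14.34, 13.88 and 12.94 in the helveticoside series. The drop lay mostly between the middle and the top dose, where the ratios were 3.81-fold and 2.55-fold lower, and neither slope passed the test (limma adjusted p = 0.0617 and 0.140).

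Among the 6 TFIIIC subunits, which bind the inner promoters of transfer RNA genes, GTF3C6 fell with both agents by a slope of −0.19 ± 0.04 per step with EEDS (SE, adjusted p = 0.0466, limma) and −0.26 ± 0.04 with helveticoside (adjusted p = 0.0284). GTF3C2 fell with EEDS, to a log2 ratio of −1.21, and had −0.75 at 60 nM helveticoside (adjusted p = 0.0269 and 0.0808). GTF3C1, GTF3C3, GTF3C4 and GTF3C5 had log2 ratios from −0.20 to 0.70 at the top doses. The catalytic subunits did not move together: POLR3B was 2.08-fold lower at 20 μg/mL EEDS and 1.93-fold lower at 60 nM helveticoside, and POLR3A had log2 ratios of 0.54 and 0.79, none with a trend past the threshold.

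RNA polymerase II showed a small subunit that fell and others that rose around a core that moved little. The catalytic subunit POLR2A had a log2 signal of 14.08 without EEDS and 13.32, 13.51 and 13.92 at rising doses, and 13.98, 13.61, 13.65 and 13.96 in the helveticoside series. It was lowest at the lowest dose of each agent and came back towards its control at the top dose. POLR2B, the second largest subunit, had log2 ratios of −0.23 and −0.21 at the top doses.

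POLR2I encodes the subunit RPB9, known for its part in the accuracy of RNA synthesis and in the action of the elongation factor TFIIS. Its log2 signal went from 14.66 through 14.23 and 13.90 to 13.32 with EEDS, and from 14.46 through 14.25 and 13.91 to 13.49 with helveticoside. All treated arrays lay below both controls. It was 2.53-fold lower at 20 μg/mL EEDS and 1.96-fold lower at 60 nM helveticoside, with slopes of −0.43 ± 0.04 (SE, limma adjusted p = 0.0132) and −0.33 ± 0.04 (adjusted p = 0.0190). Polymerase I carries a related subunit, POLR1H, which moved the other way.

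POLR2D and POLR2G form the polymerase II stalk. POLR2D was 2.44-fold higher at 20 μg/mL EEDS and 2.32-fold higher at 60 nM helveticoside, and its slopes did not pass the test (limma adjusted p = 0.0736 and 0.0959). POLR2G rose with EEDS, to a log2 ratio of 0.73 (adjusted p = 0.0490), and had 0.79 at 60 nM helveticoside (adjusted p = 0.05003). POLR2J and its copy POLR2J2 share nearly all of their sequence, so their separate signals are uncertain; their log2 ratios were 0.39 and −0.44 at 20 μg/mL EEDS and 0.39 and 0.03 at 60 nM helveticoside.

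All 5 subunits shared by the 3 polymerases had signals above the control at both top doses, with a median log2 ratio of 0.45 with EEDS and 0.44 with helveticoside. Of all genes 54.5% and 48.9% were above the control. POLR2H had a log2 ratio of only 0.03 with EEDS, and no test of the group was made. POLR2L, a small zinc-binding subunit, rose with both agents: its log2 signal was 17.23, 17.61, 17.78 and 18.13 in the EEDS series and 16.92, 17.10, 17.45 and 17.68 in the helveticoside series. It thus climbed at each dose, by slopes of 0.29 ± 0.03 (SE, limma adjusted p = 0.0132) and 0.26 ± 0.03 (adjusted p = 0.0169). POLR2K, another zinc-binding subunit, was 2.10-fold and 2.02-fold higher, and it rose with EEDS (adjusted p = 0.0459) while its helveticoside slope had an adjusted p of 0.0580. POLR2F rose with EEDS to a log2 ratio of 0.45 (adjusted p = 0.0356), although another of its probes gave −0.24. POLR2E and POLR2H had no trend past the threshold.

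**Figure D2:**
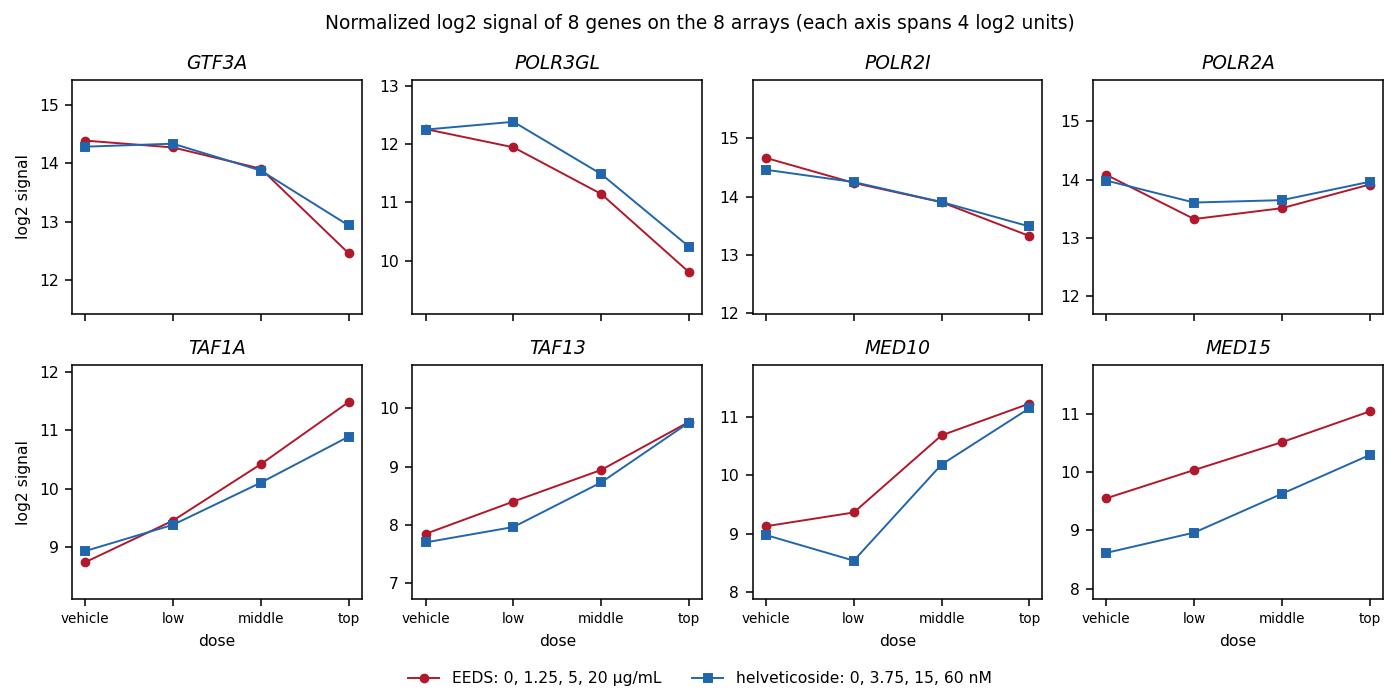
Normalized log2 signal of 8 genes (1 array per point, no error bars) on the vehicle, low, middle and top dose arrays of EEDS (red circles) and helveticoside (blue squares); each vertical axis spans 4 log2 units. GTF3A, POLR3GL and POLR2I go down, TAF1A, TAF13, MED10 and MED15 go up, and POLR2A dips at the lowest dose of each agent.

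Polymerase I and its factor SL1 held the gene that rose furthest with EEDS. TAF1A is a subunit of SL1, which places polymerase I on ribosomal RNA genes. Its log2 signal was 8.74 without EEDS and 9.45, 10.42 and 11.48 at rising doses, and 8.93 without helveticoside and 9.38, 10.10 and 10.89 at rising doses. Every step was upward in both series. It was 6.70-fold higher at 20 μg/mL EEDS and 3.89-fold higher at 60 nM helveticoside, with slopes of 0.92 ± 0.06 (SE, limma adjusted p = 0.0129) and 0.66 ± 0.06 (adjusted p = 0.0165), and a second probe gave log2 ratios of 2.48 and 2.33. The other SL1 subunits did not share this: TAF1B, TAF1C and TAF1D had log2 ratios of −0.13, −0.32 and 0.55 with EEDS and −0.04, −0.64 and 0.35 with helveticoside, and none had a trend past the threshold.

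POLR1H, the polymerase I subunit related to POLR2I, had a log2 signal of 12.56, 13.17, 13.53 and 13.84 in the EEDS series and 12.31, 12.63, 13.23 and 13.53 in the helveticoside series. It rose with both agents, to 2.43-fold and 2.32-fold (slopes 0.42 ± 0.05 and 0.43 ± 0.05, limma adjusted p = 0.0145 and 0.0183). The largest subunits POLR1A and POLR1B had log2 ratios from −0.27 to −0.01 at the 6 doses. Of the 6 genes of polymerase I subunits, POLR1H was the only one with a trend past the threshold for either agent.

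The initiation factors of polymerase II often had subunits of 1 factor that differed. TFIIB, which bridges the promoter and the polymerase, is a single protein encoded by GTF2B; its log2 signal was 8.46, 8.75, 9.02 and 10.07 in the EEDS series and 8.62, 8.70, 8.77 and 9.24 in the helveticoside series. It rose with EEDS (3.06-fold, slope 0.51 ± 0.10, limma adjusted p = 0.0309), and was 1.54-fold higher at 60 nM helveticoside (slope 0.19 ± 0.10, adjusted p = 0.272). The difference of the slopes had an adjusted p of 1.0.

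TFIIA, which steadies TBP on DNA, has subunits from a pair of genes that moved apart. GTF2A1 had a log2 signal of 9.05, 8.35, 8.10 and 7.93 in the EEDS series and 9.96, 9.31, 8.96 and 8.71 in the helveticoside series. GTF2A2 had 14.03, 14.34, 14.74 and 14.88, and 13.92, 14.12, 14.29 and 14.66. GTF2A1 fell at every step, to 2.17-fold and 2.37-fold lower (limma adjusted p = 0.0398 and 0.0359), and GTF2A2 rose at every step, to 1.80-fold and 1.67-fold higher (adjusted p = 0.0167 and 0.0284).

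TFIIE brings TFIIH to the promoter. Its larger subunit GTF2E1 had a log2 signal of 11.06, 10.73, 10.44 and 9.90 in the EEDS series and 10.79, 10.37, 10.23 and 9.98 in the helveticoside series. It fell with both agents, to 2.24-fold and 1.75-fold lower (adjusted p = 0.0167 and 0.0395), while its partner GTF2E2 had log2 ratios of 0.06 and 0.00. The TFIIF subunits GTF2F1 and GTF2F2 had log2 ratios of −0.46 and 0.59 with EEDS and −0.54 and 0.06 with helveticoside, with no trend past the threshold.

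TFIIH opens promoter DNA and also acts in excision repair. Of its 4 genes with GTF2H names and a probe on this list, GTF2H3 and GTF2H4 fell with helveticoside dose and none had an EEDS trend. GTF2H3 had log2 ratios of −0.80 at 20 μg/mL EEDS and −1.20 at 60 nM helveticoside (limma adjusted p = 0.0567 and 0.0282). GTF2H4 was not well above background at 60 nM helveticoside and was at least 2.44-fold lower there (adjusted p = 0.0404), while its log2 ratio was −0.68 with the signal as scanned and −0.71 with normexp background correction, both under 2-fold. With EEDS the log2 ratio was −0.54 (adjusted p = 0.156), and the signal of GTF2H4 on the helveticoside control array was also 1.01 log2 units below that on the EEDS control array. GTF2H1 had 0.77 and 0.74, and GTF2H5 had −0.47 and −0.93. GTF2H2C_2, a near-identical copy of GTF2H2 whose signal cannot be ascribed to 1 copy, had −0.78 and −0.80.

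The TFII-I family holds signal-responsive DNA-binding factors named with the general factors. GTF2I had a log2 signal of 14.63, 14.50, 13.49 and 13.50 in the EEDS series and 14.70, 14.44, 13.76 and 13.60 in the helveticoside series, so it dropped between the low and the middle dose. It fell with EEDS (2.18-fold lower, adjusted p = 0.0392, limma) and was 2.14-fold lower at 60 nM helveticoside (adjusted p = 0.0570). GTF2IRD1 fell with EEDS, to 2.73-fold lower (adjusted p = 0.0279), and was 1.75-fold lower at 60 nM helveticoside (adjusted p = 0.140). GTF2IRD2 rose with helveticoside, to 3.16-fold at 60 nM (adjusted p = 0.0417), where 2 other probes gave log2 ratios of 0.65 and 0.68. GTF2I and GTF2IRD2 have near-identical copies in the genome, which makes their signals uncertain.

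TFIID is the complex of TBP and its associated factors that binds the core promoter. Of 17 TFIID genes, 12 were above the control at 20 μg/mL EEDS, with a median log2 ratio of 0.64, and 10 were so at 60 nM helveticoside, where the median was 0.32. With EEDS 4 of them rose with dose, with helveticoside 2, and none fell; 4 and 3 were more than 2-fold higher at the top doses and none lower. The shares above the control were 70.6% and 58.8%, against 54.5% and 48.9% of all genes. Those past 2-fold upward were 23.5% and 17.6%, against 13.3% and 10.8%, and those rising 23.5% and 11.8%, against 7.27% and 5.48%. Among genes well above background on all 8 arrays, 14.3% and 10.9% were past 2-fold upward, and 10.2% and 7.58% rose. No test of the group was made.

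TAF13, which pairs with TAF11 in TFIID, had a log2 signal of 7.85, 8.40, 8.94 and 9.77 in the EEDS series and 7.70, 7.97, 8.73 and 9.76 in the helveticoside series. It rose at each step, to 3.78-fold and 4.15-fold (slopes 0.63 ± 0.09 and 0.69 ± 0.09, limma adjusted p = 0.0180 and 0.0195), while its partner TAF11 had log2 ratios of −0.14 and −0.17. TAF8 rose with both agents, with log2 ratios of 0.95 and 1.18 (adjusted p = 0.0356 and 0.0256) and 1.21 and 1.19 on a second probe. TAF5, a scaffold subunit, rose with EEDS to 3.45-fold (adjusted p = 0.0364). Its probe was not well above background on the helveticoside control array, and the signal at 60 nM was at least 2.64-fold higher (adjusted p = 0.0827), although the log2 ratio was 0.87 with the signal as scanned and 0.86 with normexp, both under 2-fold. TAF3 rose with EEDS to a log2 ratio of 0.79 and had 0.80 at 60 nM helveticoside (adjusted p = 0.0482 and 0.0737).

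The largest TFIID subunit, TAF1, had log2 ratios of −0.06 and −0.49 at the top doses, and a second probe gave 0.71 and −0.35, so the EEDS value differed in sign between probes. The copy TAF1L, whose sequence is close to that of TAF1, had 0.80 and −0.20, but its control arrays differed by 2.40 log2 units, which is more than any change with dose. Of the other paralogue pairs, TAF4 and TAF4B had 0.56 and 0.98 with EEDS and 0.47 and 0.32 with helveticoside, TAF9 and TAF9B had 0.23 and 0.64, and 0.09 and 0.48, and TAF7 had 1.23 and 0.45. TAF7L, known from germ cells, was not well above background on any array. TAF6L, a subunit of the SAGA coactivator, fell with EEDS to 2.42-fold lower (adjusted p = 0.0310, limma) and was 1.90-fold lower at 60 nM helveticoside (adjusted p = 0.0697), and TAF5L of the same complex had log2 ratios of 0.56 and 0.72.

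**Figure D3:**
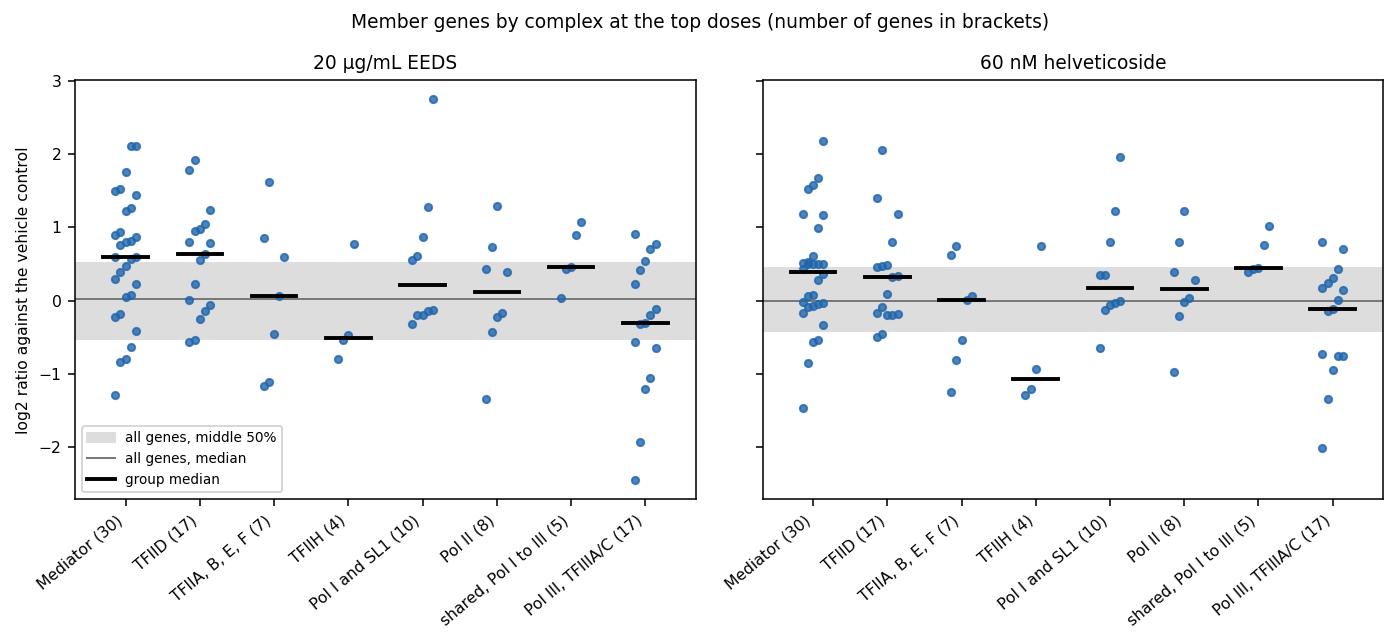
Log2 ratio at 20 μg/mL EEDS (left) and 60 nM helveticoside (right) of the member genes by complex; a point is a gene, a black bar the median of all genes of its group (1 of which is not drawn), and the grey band and line the middle 50% and the median of all genes. The medians of Mediator (0.60 and 0.39) and TFIID (0.64 and 0.32) lie above the line of all genes and that of polymerase III with TFIIIA and TFIIIC (−0.30 and −0.12) below it.

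Mediator was the largest group, and most of its genes lay above the control at the top doses. Of 30 genes 23 were above the control at 20 μg/mL EEDS and 19 at 60 nM helveticoside, with median log2 ratios of 0.60 and 0.39. More than 2-fold higher signal was seen in 8 and 6 of them, and 1 at each top dose was more than 2-fold lower. With EEDS 6 rose and 1 fell with dose, and with helveticoside 3 rose and 1 fell. The genes above the control make 76.7% and 63.3% of the group, against 54.5% and 48.9% of all genes. Those past 2-fold upward make 26.7% and 20.0%, against 13.3% and 10.8%, and those rising 20.0% and 10.0%, against 7.27% and 5.48%. Among genes well above background on all 8 arrays, 14.3% and 10.9% were past 2-fold upward, and 10.2% and 7.58% rose. The 6 genes past 2-fold upward with helveticoside include MED28 and MED31, which were not well above background on its control array. No test of the group was made.

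The tail module, where activators bind, held all 3 Mediator genes that rose with both agents. MED15 had a log2 signal of 9.55, 10.04, 10.51 and 11.04 in the EEDS series and 8.62, 8.96, 9.63 and 10.29 in the helveticoside series, and MED30 had 9.20, 9.98, 10.64 and 10.95, and 8.92, 9.41, 9.98 and 10.50. Both climbed at every step. MED15 reached 2.81-fold and 3.20-fold (slopes 0.49 ± 0.05 and 0.57 ± 0.05, limma adjusted p = 0.0132 and 0.0165), and MED30 reached 3.37-fold and 2.99-fold (slopes 0.59 ± 0.06 and 0.53 ± 0.06, adjusted p = 0.0132 and 0.0177). MED23, a target of growth factor signals, rose to 2.40-fold and 2.27-fold (adjusted p = 0.0200 and 0.0254), and 2 dimmer probes of the gene, each well above background on 4 arrays, gave log2 ratios of 0.05 and 0.78 with EEDS and −1.47 and 1.05 with helveticoside.

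MED28 was not well above background on the EEDS control array or on any helveticoside array. It rose with EEDS, by a factor of at least 4.31 at 20 μg/mL (adjusted p = 0.0330, limma). With the signal as scanned and with normexp the log2 ratio was 0.78 in both cases, under 2-fold. MED25, also of the tail, fell with EEDS to a log2 ratio of −0.80 and had −0.54 at 60 nM helveticoside (adjusted p = 0.0200 and 0.0579), with −1.17 and −1.09 on a second probe. MED16, MED24, MED27 and MED29 had log2 ratios from −0.09 to 0.50 at the top doses.

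In the middle module, MED10 had a log2 signal of 9.13, 9.36, 10.69 and 11.23 in the EEDS series and 8.98, 8.54, 10.19 and 11.15 in the helveticoside series. The step lay between the low and the middle dose with both agents, it was 4.29-fold and 4.51-fold higher at the top doses, and a straight line did not pass the test (limma adjusted p = 0.0600 and 0.0591). MED1, the subunit that nuclear receptors bind, rose with EEDS to 2.86-fold (adjusted p = 0.0297) and was 1.98-fold higher at 60 nM helveticoside (adjusted p = 0.0734), with log2 ratios of 1.22 and 1.30 on a second probe. MED19 rose with EEDS to a log2 ratio of 0.59 (adjusted p = 0.0465) and had 0.35 at 60 nM helveticoside (adjusted p = 0.138).

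MED7, which forms a hinge with MED21, went the other way from its neighbours. Its log2 signal was 9.44, 8.99, 8.74 and 8.81 in the EEDS series and 9.42, 8.93, 8.34 and 7.95 in the helveticoside series. It fell with helveticoside, to 2.77-fold lower (slope −0.50 ± 0.07, limma adjusted p = 0.0204), while the EEDS slope was −0.21 ± 0.07 (adjusted p = 0.0927) and the difference of the slopes had an adjusted p of 1.0. MED21 and MED26 were 2.32-fold and 2.71-fold higher at 20 μg/mL EEDS, and 1.42-fold and 1.43-fold higher at 60 nM helveticoside, with no trend past the threshold.

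The scaffold MED14, which joins the modules, had log2 ratios of −0.84 and −0.56 at the top doses (limma adjusted p = 0.0686 and 0.184). In the head module, which touches the polymerase, MED11 was 2.44-fold lower at 20 μg/mL EEDS and 1.81-fold lower at 60 nM helveticoside, mostly at the last step (log2 ratios 0.12, −0.29 and −1.29 with EEDS), and no head gene had a trend past the threshold. In the kinase module, MED12 had −0.22 and −0.05, MED13 0.76 and 0.50, and MED13L 0.07 and −0.17, and MED12L was not well above background on any array.

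Most members had ratios of the same sign with both agents, as most genes of the array did. At the top doses this held for 97 of 107 members (90.7%), for 76.5% of all genes and for 86.9% of genes well above background on all 8 arrays, and the correlation across the genes was 0.91 (Pearson r; Spearman rho 0.90), against 0.78 across all genes and 0.93 across genes well above background on all 8 arrays; genes are not independent replicates, and each agent had its own control array. Past 2-fold, 11 genes were higher with both agents, 5 lower with both and none opposite, which is 10.3% and 4.67% against 7.38% and 9.66% of all genes, of which 52 were opposite. Without MED28, whose helveticoside signals were not well above background, 10 were higher with both. The higher ones were TAF1A, TAF5, TAF13, MED10, MED15, MED23, MED28, MED30, POLR1H, POLR2D and POLR2K, and POLR3GL, GTF3A, GTF2I and GTF2A1 were among the lower ones.

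A dose trend past the threshold with both agents was found for 14 genes, 9 rising and 5 falling, which is 48.3% of those with EEDS and 77.8% of those with helveticoside. Over all genes the shares were 60.5% and 81.1%. The rising ones were TAF1A, TAF8, TAF13, MED15, MED23, MED30, POLR1H, POLR2L and GTF2A2, and POLR2I, GTF2A1, GTF2E1 and GTF3C6 were among the falling ones. No member, and none of all genes, had trends past the threshold in opposite directions. The limma test of the difference between the slopes called none of the members, with 3 at an unadjusted p under 0.05 (TAF1A, MED7 and GTF2IRD2), and none of 19046 genes, with 525 at that unadjusted level.

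**Figure D4:**
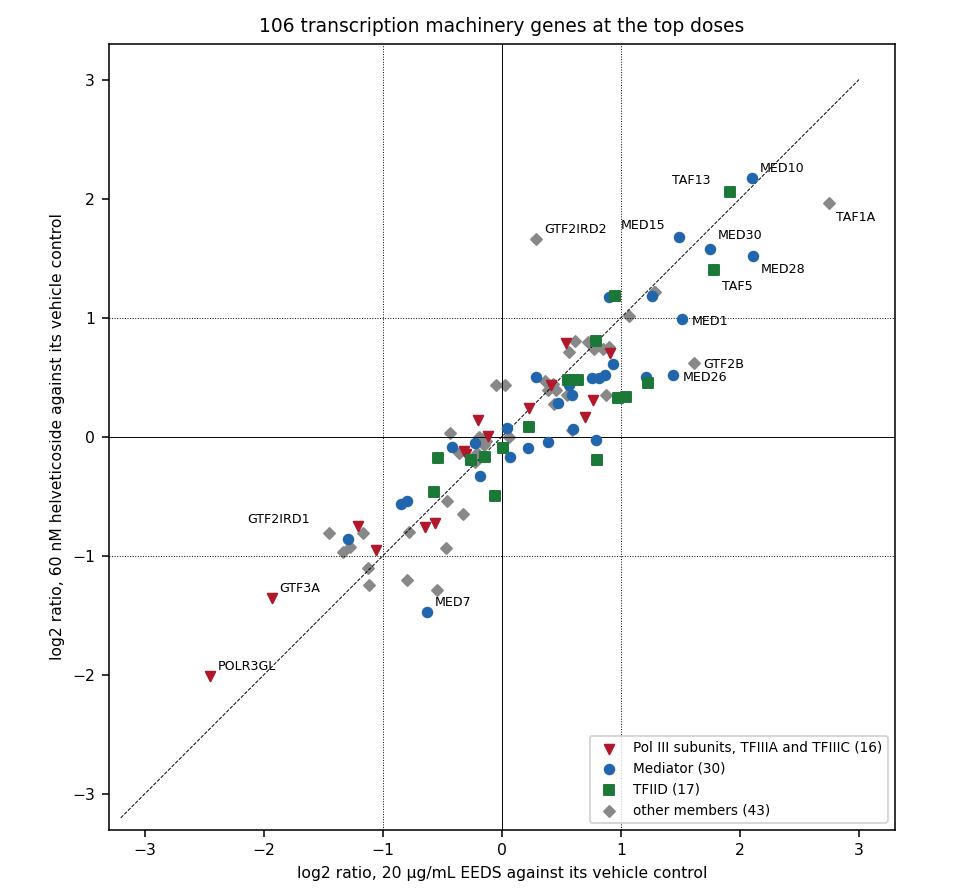
Log2 ratio of 106 of the genes at 20 μg/mL EEDS (horizontal axis) and 60 nM helveticoside (vertical axis), by complex; dotted lines mark 2-fold, the dashed line equal ratios, and genes past 1.4 log2 units with either agent are named. The points run along the diagonal (Pearson r = 0.91 over all 107), from POLR3GL and GTF3A at the lower left to TAF1A, MED10 and TAF13 at the upper right, with GTF2IRD2 farthest above it.

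Several members could be read on more than 1 probe. Of 25 genes with 2 or more probes, 20 had at least 2 that were well above background on all 8 arrays, and their top-dose log2 ratios differed between probes by a median of 0.20 with either agent and by up to 1.78 with EEDS and 0.97 with helveticoside. The signs disagreed for 2 genes with EEDS and 1 with helveticoside. With EEDS 6 of the 20 passed 2-fold on at least 1 probe and 4 of them on all probes in the same direction, and with helveticoside 7 and 4.

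Genes that work with the members but carry other names were read from a list of 82, of which 79 had a probe. At 20 μg/mL EEDS 16 of them were more than 2-fold higher (20.3%) and 10 lower (12.7%), and at 60 nM helveticoside 10 (12.7%) and 11 (13.9%), against the shares of all genes given above. With EEDS 12 rose (15.2%) and 8 fell (10.1%) with dose, against 7.27% and 7.85% of all genes, and with helveticoside 6 rose (7.59%) and 7 fell (8.86%), against 5.48% and 5.8%. Among genes well above background on all 8 arrays the shares were 10.2% and 10.7% with EEDS, and 7.58% and 7.63% with helveticoside. TBP itself had log2 ratios of 0.73 and 0.66 at the top doses with no trend past the threshold.

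On this list 9 genes were more than 2-fold lower with both agents (11.4%). That is near the share of all genes (9.66%) and of genes well above background on all 8 arrays (11.3%). HEXIM2 and HEXIM1, which hold the elongation kinase P-TEFb in an inactive state, had log2 ratios of −4.26 and −1.88 at 20 μg/mL EEDS and −3.57 and −2.16 at 60 nM helveticoside, and both fell with each agent (limma adjusted p = 0.01902 and 0.04838 with EEDS). TCEA2, a form of TFIIS, the factor that works with POLR2I, fell to −4.14 and −4.00, and NELFE, a subunit of a pausing factor, to −2.43 and −2.06. MAF1, a repressor of polymerase III, had −1.14 and −1.21, and TFB1M, EAF2, ELL3 and RECQL5 were also more than 2-fold lower with both agents, ELL3 on a probe well above background on 3 arrays.

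Another 9 genes of the list were more than 2-fold higher with both agents (11.4%). The share was 7.38% of all genes and 9.27% of genes well above background on all 8 arrays, and no test of the list was made. CCNH, the cyclin of the TFIIH kinase, rose with both, to log2 ratios of 2.12 and 1.82 (limma adjusted p = 0.02398 and 0.04169). BRF2, a polymerase III factor for promoters outside the gene, rose to 1.69 and 1.70, and EAF1, a partner of the elongation factor ELL, to 2.003 and 2.15. RRN3, the factor that readies polymerase I, had 1.87 and 1.56, ELL 3.12 and 2.42, CCNT1, a cyclin of P-TEFb, 1.78 and 1.23, and CRCP, a polymerase III subunit, 1.96 and 1.61. CCNT2 and RPRD1B were also more than 2-fold higher with both.

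The 2 vehicle control arrays were themselves more than 2-fold apart for 6 members (5.61%), against 10.4% of all genes. These were TAF15 (helveticoside control 2.74 log2 units lower), TAF1L (2.40 higher), TAF5L (1.52 lower), MED31 (1.34 lower), MED28 (1.18 lower) and GTF2H4 (1.01 lower). Each ratio above was taken within its own series, and the order of the series' own doses does not rest on this gap.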

How the data were processed

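Per array, the deposited scanner output gives the intensity of each spot, with the median signal, the local background and a processed signal already background-subtracted, and the authors also gave a table of processed intensity values, normalized within each series, that was used as an alternative. Spots called outliers and control spots were left out, spots of a probe were averaged, and the processed signals were quantile-normalized over the 8 arrays before log2 was taken. Among 34127 probes, 24812 could be matched through their accession to a gene of GRCh38.p14; for 4797 genes with several probes the brightest one stood for the gene. Genes entered a series where their signal reached 1.4 times the local background on at least 1 array (19046 genes for EEDS, 19056 for helveticoside). Where a probe was not well above background on the array with the lower signal, the fold is given as a bound, against the higher of its own signal and the lowest signal well above background on that array.

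Calls of more than 2-fold have no test. Trends on the dose step (0 to 3) were fitted with limma 3.58.1 (R 4.3.3, statmod 1.5.0, with trend and robust estimation) over all 8 arrays with 4 residual degrees of freedom, and p-values were adjusted by the Benjamini-Hochberg procedure over all genes with a threshold of 0.05. The fit was tested on simulated data. The spread behind these p-values is that of the arrays about straight lines and not that of repeated cultures. Python 3.11.15, numpy 2.4.6, pandas 2.3.3, scipy 1.17.1 and matplotlib 3.10.9 were used for the rest. Named genes were the 8 largest rises and falls at each top dose, members with a trend (up to 10 per direction and agent), the 2 largest subunits of each polymerase with GTF2B, TAF1, MED14 and MED1, paralogue pairs, and genes of the wider list past 2-fold with both agents. 1 member is counted in every total but not reported by name or drawn here. Other genes named beside them were chosen after their values were seen. The members and lists were chosen with earlier results of these data known. No slide or scan date was used here, and batches within a series were not examined.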

Additional observations from a re-analysis of the deposited data

How the results depend on the processing

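Counts over 2-fold, medians and trends were recomputed with the signal as scanned, normexp background correction, 75th percentile scaling, the authors' deposited values, the mean of all probes, only genes well above background, no filter, a stricter filter, and limma without trend and robust estimation. Trends were then found for 26 to 35 members with EEDS and 16 to 25 with helveticoside, and the difference of the slopes called none. Over all genes tested, 2813 to 4600 were called with EEDS and 1657 to 2774 with helveticoside. The authors' values gave 5 members more than 2-fold lower at 60 nM helveticoside. Against the control of the other series, 28 members were higher at 20 μg/mL EEDS with a median of 0.43, while 9 were higher at 60 nM helveticoside and the median there was −0.0802, which reversed its direction. At 1.5-fold 40 were higher with EEDS, and 26 higher and 20 lower with helveticoside. At 3-fold 7 were higher and 3 lower with EEDS, and 5 higher and 2 lower with helveticoside. No shares of all genes are given for these other values, controls and thresholds, so the counts are not read as particular to the members. No trend of either agent (0 members) passed the threshold without the lowest, the middle or the top dose, or with only the 4 arrays of a series. These fits rest on fewer arrays. Over the alternatives, values of named members stayed on their side of 2-fold in 895 cases, lost the call in 42 and gained it in 21. The 895 include values that were under 2-fold in the main setting. They also include the settings that changed only the filter or the floor (well above background, no filter, stricter filter). Those kept the main signals, so their 94, 108 and 108 unchanged cases say nothing about how firm the calls are. No value past 2-fold changed sign, and 26 values under 2-fold did, 12 of them against the control of the other series. No paired analysis was possible because each group has 1 array, so the groups share fewer than 2 replicate numbers. With 1 array per dose, the number of arrays limits the precision, and the 8 members not well above background on every array have the least certain ratios.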
